A study of Rattus norvegicus with 42 samples.

Results

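Hippocampal RNA from 28 rat pups given an antiseizure drug was compared with that from 13 pups given vehicle, and transcripts that moved the same way after both drugs were sought. The 41 libraries, 1 per animal, were chosen by treatment label from 42 in all, and the library left out is a vehicle animal that the study excluded. The animals were male Sprague Dawley pups that received 1 intraperitoneal injection on postnatal day 7. The drug animals were 14 pups given phenobarbital (PB, 75 mg/kg) and 14 given levetiracetam (LEV, 200 mg/kg), and the vehicle group (VEH) received saline. Per the study's methods, hippocampi were dissected 72 hours later, on postnatal day 10, after an overdose of pentobarbital, a barbiturate that animals of every group received. Each group took 1 pup per litter, so the groups share litters, and the labels do not say which pups were littermates.

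The sample codes have 2 forms, a 2-letter prefix for animals 1 to 6 of each group and a 1-letter prefix for animals 7 to 14. They are called the 2-letter series (6 VEH and 12 drug animals) and the 1-letter series (7 VEH and 16 drug animals). Per the study's methods, the animals were bought in separate orders, and whether the code form marks an order is not stated. The series share no animals, so each one is a separate set of drug and VEH animals for the same comparison.

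The drugs act through different proteins. Phenobarbital prolongs the opening of GABA-A receptors, the chloride channels through which GABA acts, while levetiracetam binds SV2A, a glycoprotein of synaptic vesicles that takes part in transmitter release. In the newborn hippocampus synapses are still forming, astrocytes and oligodendrocytes are maturing, and activity and injury can both leave traces in the transcripts of any of these cells. A response common to both drugs would be a set of transcripts that departs from VEH in one direction after either agent.

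Each library held between 9499494 and 14488125 rounded counts. The RNA had the marks of hippocampus in every animal, with Prox1, a dentate granule cell gene, at 498 to 1165 normalized counts and Neurod6, a pyramidal neuron gene, at 2788 to 4131. One library went against its label: VEH animal 1, from a pup labelled male, had 1 count of Eif2s3y and 0 counts of Ddx3, both Y-linked, while the other 40 animals had 705 to 1028 and 475 to 891. Results are therefore also given without it. 18S ribosomal RNA took a smaller share of counts in the drug animals of the 1-letter series (0.384% to 1.06%, median 0.578%) than in its VEH animals (0.853% to 1.20%, median 1.13%). In the 2-letter series the shares were 0.932% to 1.68% after a drug and 0.963% to 1.23% in VEH. The part of this share in the results was not tested beyond the fit with its level as a covariate given below.

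In the main fit few transcripts passed in the comparison of both drugs with VEH, and their changes were small. Of 13062 transcripts tested, 3 differed between drug and VEH animals, which is 0.0230% (edgeR's quasi-likelihood test with the series as a term and Benjamini-Hochberg adjustment, adjusted p under 0.05). Gxylt1 and Phldb1 rose (0.0153% of the tested) and Mmd2 fell (0.00766%), none of them by as much as 1.25-fold. With the drugs taken apart in a fit of 3 groups, 704 transcripts differed between PB and VEH (5.39%), 1 between LEV and VEH (0.00766%) and 581 between PB and LEV (4.45%). All 3 also moved the same way after PB and after LEV, with the smaller change at least 50% of the larger and no difference between the drugs past the threshold, and the same way in both series. The drugs share the 13 VEH animals, so the sign after PB and the sign after LEV are not independent of each other. No transcript of the 13062 had drug and VEH animals that did not overlap. At an unadjusted p under 0.05, 1394 transcripts differed (10.7%), of which 728 were higher (5.57%) and 666 lower (5.10%) in drug animals. The median log2 change over all tested transcripts was 0.0015.

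The count was sensitive to the model and to single animals. Without VEH animal 1 it was 2, since Phldb1 no longer passed, and without LEV animal 8 it was 22. DESeq2 called 60 transcripts in place of 3, and the fit with 18S ribosomal RNA as a covariate, chosen after its level was seen, called 67. The 3 named here were among the called in both.

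Gxylt1 encodes glucoside xylosyltransferase 1, which adds xylose to the O-linked glucose on epidermal growth factor repeats of Notch receptors. Its transcript NM_001100887 lies on rn6 chromosome 7 from 134447578 to 134495836, as the deposited table gives it. The 13 VEH animals had 455 to 569 normalized counts with a median of 491. The 28 drug animals had 498 to 669 with a median of 574. Every PB and every LEV animal lay above the VEH mean of its own series, and 17 of the 28 lay above all VEH animals, but the ranges overlapped because VEH animals reached 569. Gxylt1 rose by 0.21 on the log2 scale (SE 0.03, 28 drug and 13 VEH animals, edgeR adjusted p = 0.000348), or 16.1%. The log2 change was 0.23 (SE 0.04) after PB and 0.19 (SE 0.04) after LEV, and the difference between the drugs was 0.04 with a 95% interval from -0.03 to 0.11. It was the single transcript that passed in the comparison of LEV with VEH alone (edgeR adjusted p = 0.0350).

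The log2 change of Gxylt1 lay between 0.21 and 0.23 when each of the 41 animals was left out in turn, and it passed in all 41 fits. Without VEH animal 1 it was 0.21 (edgeR adjusted p = 0.00137). Within the series it was 0.24 (SE 0.04) in the 2-letter and 0.20 (SE 0.05) in the 1-letter animals, past the threshold in the first (edgeR adjusted p = 0.00879) and not in the second (edgeR adjusted p = 0.141).

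Phldb1 encodes a pleckstrin homology domain protein of the LL5 family, which anchors microtubules at the cell cortex. Transcript NM_001191578 lies on rn6 chromosome 8 from 48997189 to 49038170. VEH animals had 1169 to 1412 normalized counts with a median of 1258, and drug animals 1185 to 1631 with a median of 1416. The series sat at different levels, with VEH means of 1373 ± 43.3 (SD, n = 6) in the 2-letter and 1208 ± 35.1 (SD, n = 7) in the 1-letter series. Within them, 11 of 12 and 13 of 16 drug animals lay above every VEH animal of the same series. Phldb1 rose by 0.13 on the log2 scale (SE 0.03, edgeR adjusted p = 0.0263), by 0.15 (SE 0.03) after PB and with a value of 0.11 (SE 0.03) after LEV, for which the comparison of LEV with VEH alone did not pass (edgeR adjusted p = 0.249). The difference between the drugs was 0.05 with a 95% interval from -0.01 to 0.10. The pooled change kept its size, 0.12 to 0.14, when single animals were left out, and passed in 38 of 41 fits. It did not pass without VEH animal 1 (edgeR adjusted p = 0.0681), VEH animal 8 or VEH animal 13. Nor did it pass with the replicate number as a block (edgeR adjusted p = 0.112), without a batch term (0.365), with all 14 VEH animals (0.248) or with the skeletal muscle level as a covariate (0.0523).

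Mmd2 encodes a membrane protein of the progestin and adipoQ receptor family and stands on the study's list of astrocyte genes. Transcript NM_001037217 lies on rn6 chromosome 12 from 14021724 to 14078121. VEH animals had 2722 to 3617 normalized counts with a median of 3047, and drug animals 2437 to 3378 with a median of 2809. In the 2-letter series 10 of 12 drug animals lay below every VEH animal of that series, and in the 1-letter series 7 of 16, of which 6 had received PB and 1 LEV. Mmd2 fell by 0.15 on the log2 scale (SE 0.03, edgeR adjusted p = 0.00449), so that its level fell by 9.61%. The log2 change was -0.18 (SE 0.03) after PB and -0.11 (SE 0.03) after LEV. The 95% interval of the difference between the drugs, -0.12 to -0.01, did not include 0, although its p was not under 0.05 after adjustment over all transcripts. Mmd2 passed in all 41 fits with an animal left out, and the value without VEH animal 1 was -0.14 (edgeR adjusted p = 0.0153). The series gave -0.14 (SE 0.03) and -0.15 (SE 0.04). It did not pass in the 1-letter series fitted alone (edgeR adjusted p = 0.248) or without a batch term (edgeR adjusted p = 0.389).

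**Figure D1:**
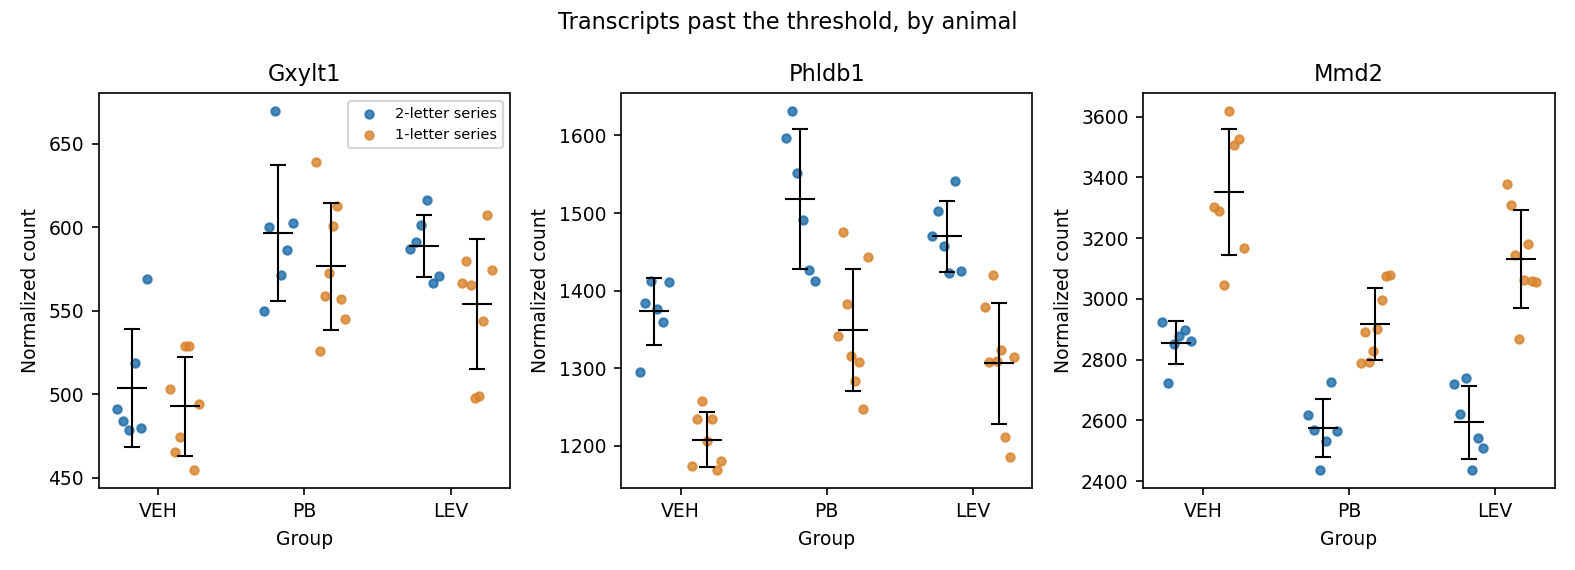
Normalized counts (vertical axes, which do not start at 0) of Gxylt1, Phldb1 and Mmd2 in each VEH, PB and LEV animal, coloured by series, with bars for the mean ± SD of each group and series. Drug animals of either drug are shifted from VEH within each series, up for Gxylt1 and Phldb1 and down for Mmd2, and the 1-letter series sits lower for Phldb1 and higher for Mmd2 than the 2-letter series.

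The bases before the start of these 3 genes are shown because theirs are the transcripts that moved the same way after both drugs. The sequences are the 250 bases before the RefSeq gene start in build GRCr8, read 5′ to 3′ on the strand of the gene, and capitals mark the GC box, GGGCGG or its reverse complement CCGCCC, including boxes that share bases. Gxylt1 is read from the minus strand of chr7:126314088-126314337, Phldb1 from the minus strand of chr8:53948286-53948535, and Mmd2 from the plus strand of chr12:17076001-17076250.
Gxylt1: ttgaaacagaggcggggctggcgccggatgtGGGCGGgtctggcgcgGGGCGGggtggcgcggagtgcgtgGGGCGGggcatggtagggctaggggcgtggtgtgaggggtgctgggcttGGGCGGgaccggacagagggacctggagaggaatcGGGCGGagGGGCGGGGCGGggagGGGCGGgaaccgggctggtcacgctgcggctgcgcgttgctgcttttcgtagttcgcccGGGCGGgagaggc
Phldb1: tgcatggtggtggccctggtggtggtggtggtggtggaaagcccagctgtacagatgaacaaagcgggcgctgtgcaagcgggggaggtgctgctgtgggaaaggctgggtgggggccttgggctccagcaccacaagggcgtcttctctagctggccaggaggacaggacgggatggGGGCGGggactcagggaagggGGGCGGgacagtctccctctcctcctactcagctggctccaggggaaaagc
Mmd2: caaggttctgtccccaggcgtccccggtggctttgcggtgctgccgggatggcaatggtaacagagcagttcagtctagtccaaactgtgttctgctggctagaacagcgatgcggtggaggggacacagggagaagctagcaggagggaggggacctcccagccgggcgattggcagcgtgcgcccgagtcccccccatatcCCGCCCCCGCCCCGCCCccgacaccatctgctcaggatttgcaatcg

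The Gxylt1 window held 9 GC boxes, the Mmd2 window 3 and the Phldb1 window 2. Of 33469 RefSeq windows of this length, 30.5% held at least 1 GC box, 14.8% at least 2, 7.41% at least 3 and 0.0956% at least 9. The windows were rich in G and C, with 74.4% in Gxylt1, 65.6% in Phldb1 and 64.4% in Mmd2, against a median of 51.2% over all windows. None of the 3 held the palindromes CACGTG (an E-box, in 5.59% of windows) or TGACGTCA (a cAMP response element, in 1.59%), and the Mmd2 window alone held CCAAT or its reverse complement ATTGG, found in 34.0% of windows.

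Another 9 transcripts met every condition of the common response other than the adjusted p, and are the next in order of p in each direction. Without VEH animal 1, their edgeR adjusted p lay between 0.105 and 0.155, and without a batch term between 0.153 and 0.406. With DESeq2 all 9 passed (DESeq2 adjusted p from 0.00537 to 0.0151). With the mean of the PB and LEV changes in the 3-group fit, all but Slc1a3 passed (edgeR adjusted p = 0.0526 for Slc1a3). On the higher side they were Tpcn2, Plxnb3, Mbd6 and Flna. Tpcn2, an endolysosomal cation channel, had 96.5 to 141 normalized counts in VEH animals (median 116) and 113 to 196 in drug animals (median 143). Its log2 change of 0.32 (SE 0.07, edgeR adjusted p = 0.0647) was 0.27 after PB and 0.37 after LEV. More than 50% of the drug animals, 15 of 28, lay above every VEH animal.

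Plxnb3, a plexin that serves as a semaphorin receptor, had the widest change of the 12, 0.43 (SE 0.09, edgeR adjusted p = 0.0647). VEH animals had 236 to 515 normalized counts (median 316) and drug animals 265 to 598 (median 435). A single VEH animal of the 2-letter series at 515 lay above all but 3 drug animals, whereas in the 1-letter series 14 of 16 drug animals lay above every VEH animal. The log2 change was 0.56 (SE 0.10) after PB and 0.30 (SE 0.10) after LEV, and the 95% interval of the difference between the drugs ran from 0.06 to 0.45. Mbd6, a methyl-CpG-binding domain protein, gave 0.19 (SE 0.04, edgeR adjusted p = 0.0647), with 0.20 after PB and 0.17 after LEV. Flna, the actin crosslinker filamin A, gave 0.17 (SE 0.04, edgeR adjusted p = 0.0647), with 0.21 after PB and 0.12 after LEV.

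On the lower side they were Gng7, Shank3, Syt11, Glud1 and Slc1a3. Gng7, a G-protein gamma subunit of neurons, had 2368 to 2911 normalized counts in VEH animals (median 2589) and 1954 to 2872 in drug animals (median 2278), a log2 change of -0.17 (SE 0.04, edgeR adjusted p = 0.0629) with -0.21 after PB and -0.14 after LEV. It passed the threshold when counts were summed per gene symbol (edgeR adjusted p = 0.0477) and with a mean of at least 50 counts (0.0400). It also passed with a series-by-drug term (edgeR adjusted p = 0.0175) and with 18S ribosomal RNA as a covariate (0.00349). It did not pass without VEH animal 1 (edgeR adjusted p = 0.105), with the replicate number as a block (0.189) or without a batch term (0.328). Shank3, a scaffold of excitatory postsynaptic sites, gave -0.17 (SE 0.04, edgeR adjusted p = 0.0647), with -0.17 after each drug. Syt11, a vesicle-associated synaptotagmin, gave -0.15 (SE 0.03) and Glud1, the mitochondrial glutamate dehydrogenase, -0.11 (SE 0.02), both with an edgeR adjusted p of 0.0647. The main transcript of Slc1a3, the astrocyte glutamate transporter GLAST, gave -0.17 (SE 0.04, edgeR adjusted p = 0.0838), with -0.16 after PB and -0.18 after LEV. With counts summed per gene symbol, Slc1a3 passed at -0.16 (edgeR adjusted p = 0.0159). The table holds 4 Slc1a3 transcripts that can share reads, and NM_019225, at a VEH mean of 11919 normalized counts, is far above the next, NM_001289943 at 722, whose log2 change was 0.12 (SE 0.15). In the 2-letter series alone NM_001289943 rose by 0.99 (SE 0.14, edgeR adjusted p = 0.00184), opposite in sign to NM_019225, and in the 1-letter series it gave -0.41 (SE 0.15).

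**Figure D2:**
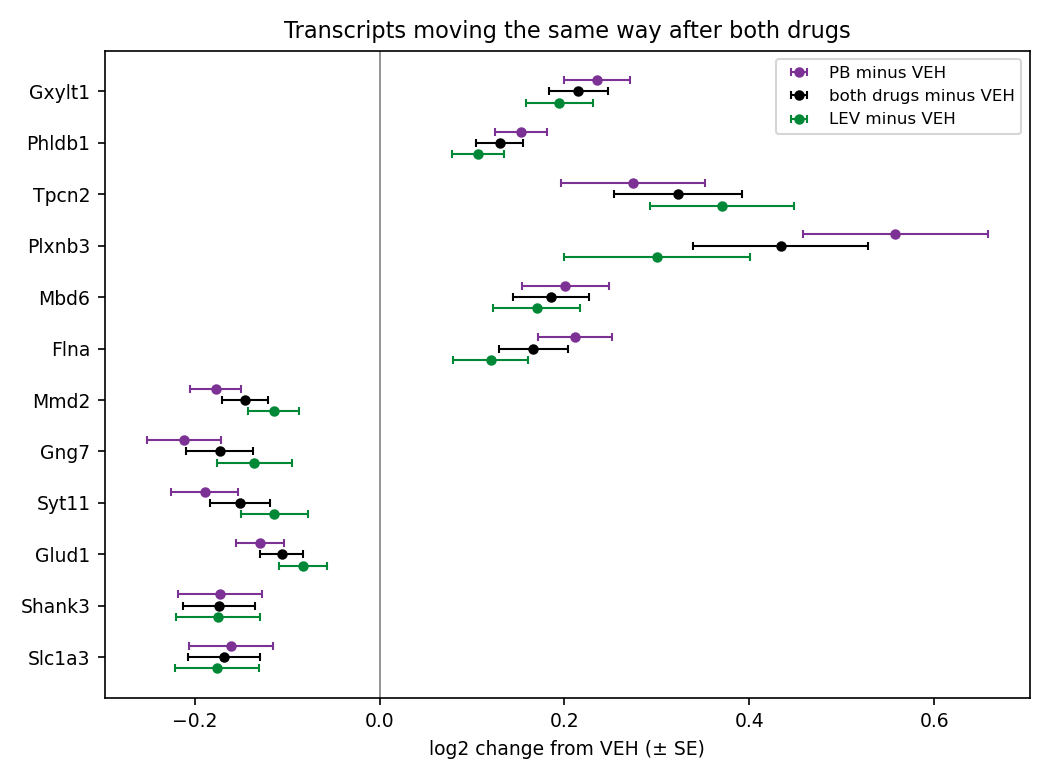
The log2 change from VEH (horizontal axis, points with SE bars) of the 3 transcripts past the threshold and the 9 next in order, for PB, for LEV and for both drugs together. By the rule that chose them, all 12 lie on one side of 0 for both drugs, between 0.11 and 0.56 on the higher side and between -0.21 and -0.08 on the lower side.

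The 12 differed in how near their values in the 2 series lay. Gxylt1, Phldb1, Flna and Mmd2 gave values within 0.04 of each other in the 2 series. Flna gave 0.17 (SE 0.05) in each. Plxnb3 gave 0.29 (SE 0.14) in the 2-letter and 0.56 (SE 0.11) in the 1-letter series (edgeR adjusted p = 0.584 for the series-by-drug term). Syt11 gave -0.25 (SE 0.04) in the 2-letter and -0.07 (SE 0.04) in the 1-letter series, where its value after LEV was -0.0042 (SE 0.04). Shank3 gave -0.28 (SE 0.05) and -0.08 (SE 0.05). For Slc1a3 the values were -0.31 (SE 0.06) and -0.05 (SE 0.04), with 0.01 (SE 0.04) after LEV in the 1-letter series. Of Syt11, Shank3 and Slc1a3 none had a difference between the series that passed the test of the difference itself (edgeR adjusted p = 0.157 for Syt11, 0.209 for Shank3 and 0.0654 for Slc1a3, series-by-drug term). None of the 12 passed the threshold in the 1-letter series fitted alone.

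**Figure D3:**
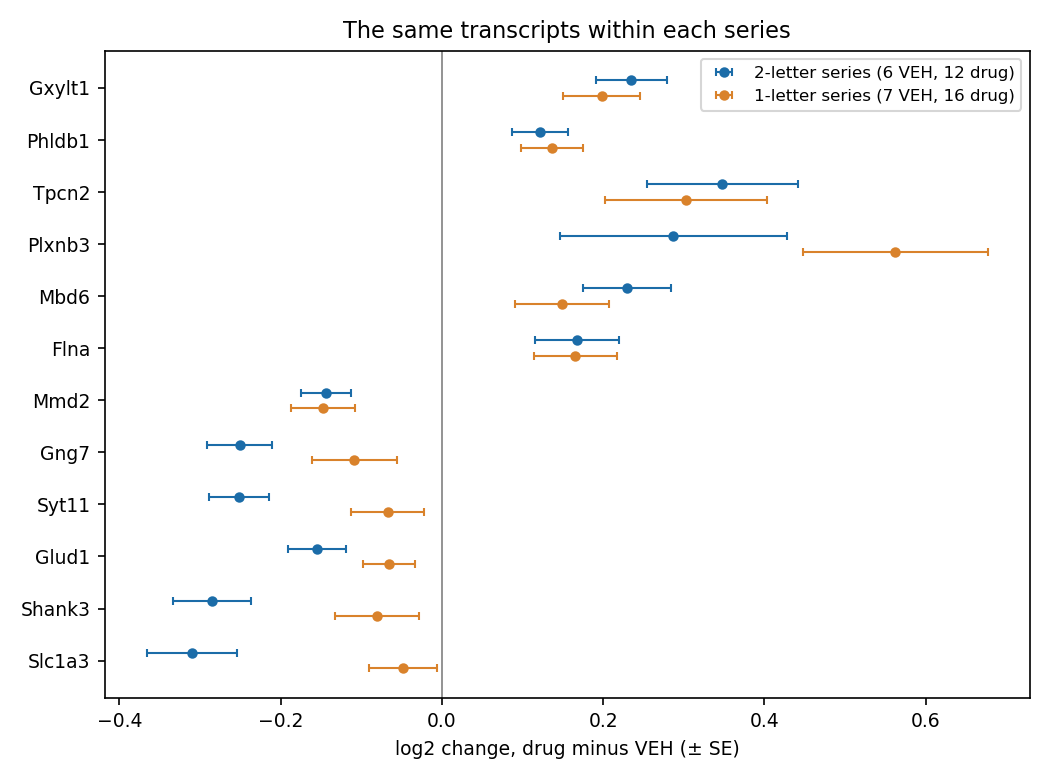
Drug minus VEH log2 change (points with SE bars) of the same 12 transcripts fitted within the 2-letter series (6 VEH, 12 drug animals) and within the 1-letter series (7 VEH, 16 drug animals). Gxylt1, Phldb1, Flna and Mmd2 have like values in both series, while Gng7, Syt11, Glud1, Shank3 and Slc1a3 lie nearer 0 in the 1-letter series.

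Over the whole table the series gave different pictures of the same comparison. In the 2-letter animals alone 146 of 13062 transcripts passed (1.12%), 24 higher and 122 lower, with a median log2 change of -0.28. The same 146 had a median of 0.06 in the 1-letter series, where 52 of them (35.6%) had the same sign, beside 48.4% of all tested transcripts. Leading names were Kcnj10, the potassium channel of astrocytes (-0.60, SE 0.08, against 0.06, SE 0.08), Gpam, an enzyme of glycerolipid synthesis (-0.42, SE 0.06, against 0.03, SE 0.05), and Slc1a2, the glutamate transporter GLT-1 (NM_001302089, -0.79, SE 0.11, against 0.08, SE 0.11). Without VEH animal 1, and over the same 13062 transcripts, the count in the 2-letter series was 74, of which 72 were among the 146 (49.3% of the 146 and 97.3% of the 74).

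In the 1-letter series alone 2 transcripts passed (0.0153%), both lower. They were Rn28s, the 28S ribosomal RNA (-1.05, SE 0.16, edgeR adjusted p = 0.00393), and LOC257642 (-1.24, SE 0.16, edgeR adjusted p = 0.000253). In the 2-letter series their log2 changes were 0.07 (SE 0.36) and 0.33 (SE 0.42). The 18S ribosomal RNA transcript Rn18s, whose shares are given above, had -0.79 (SE 0.15) in the 1-letter and 0.06 (SE 0.12) in the 2-letter series. Across the 13062 transcripts the changes of the series were correlated with a Pearson r of 0.0742 and a Spearman rho of 0.0081, over transcripts that share the libraries of each series and are not independent. The difference between the series passed the test for 69 transcripts (0.528%, series-by-drug term).

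**Figure D4:**
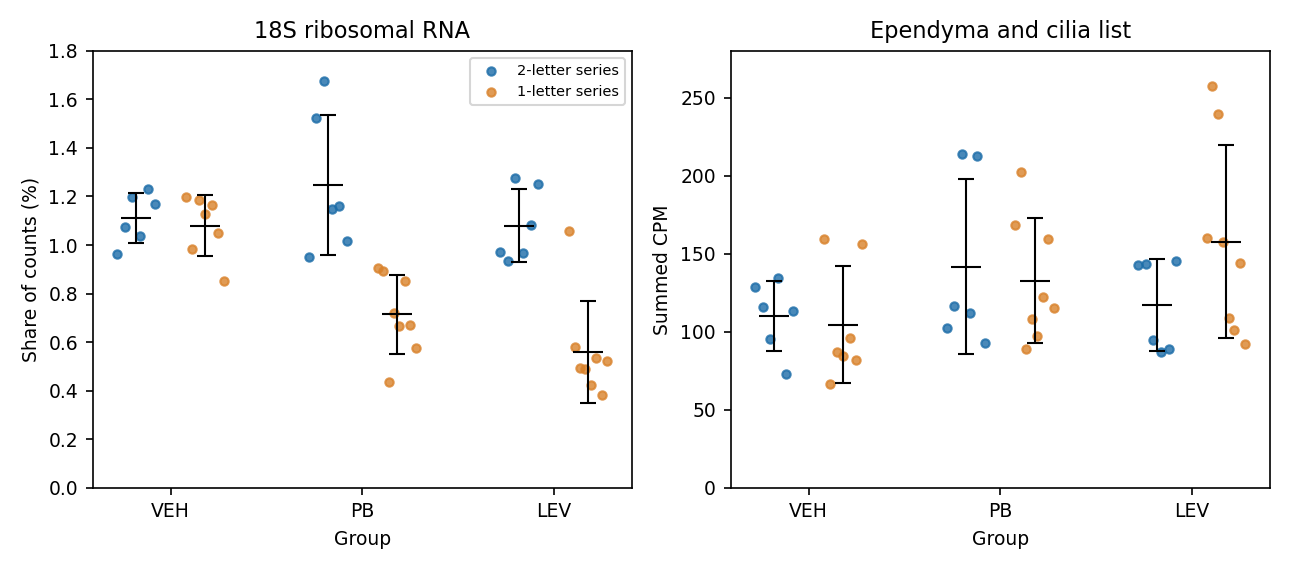
Share of counts from 18S ribosomal RNA (left, percent) and summed CPM of the ependyma and cilia list (right) in each VEH, PB and LEV animal, coloured by series, with bars for the mean ± SD. In the 1-letter series the drug animals have a median 18S share of 0.578% against 1.13% in VEH, and the cilia sums of drug and VEH animals overlap in both series.

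In the comparison of both drugs with VEH, no transcript of the drugs' direct targets passed the test. Of 14 tested GABA-A receptor subunits, 10 were lower and 4 higher in drug animals, with a median log2 change of -0.03. Gabrd, the delta subunit of extrasynaptic receptors, gave -0.08 (SE 0.09). The subunit with the smallest p was Gabrg1 at -0.18 (SE 0.05, edgeR adjusted p = 0.170). In the comparison of PB with VEH alone, Gabrg1 fell by 0.24 on the log2 scale (edgeR adjusted p = 0.0157, against -0.13 after LEV) and Gabrr2, a rho subunit, by 0.46 (edgeR adjusted p = 0.0492, against -0.09 after LEV). Sv2a, the target of levetiracetam, gave -0.05 (SE 0.03, edgeR adjusted p = 0.597), with -0.12 after PB, which passed in the comparison of PB with VEH alone (edgeR adjusted p = 0.0190), and 0.01 after LEV. The difference between the drugs passed for Sv2a (edgeR adjusted p = 0.0114). Its relative Sv2b gave -0.08 (SE 0.04), with -0.14 after PB (edgeR adjusted p = 0.0492) and -0.02 after LEV. Sv2c gave -0.06 (SE 0.10), and Syt1, the calcium sensor of release that SV2A binds, -0.05 (SE 0.04).

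Among genes of transmitter release, 38 transcripts were tested and none passed. At an unadjusted p under 0.05, 7 were lower (18.4%) and 2 higher (5.26%), beside 5.10% lower and 5.57% higher of all tested. The median was -0.05, with -0.11 after PB and -0.01 after LEV. Cplx1, a complexin that clamps and assists vesicle fusion, gave -0.16 (SE 0.04, edgeR adjusted p = 0.155), with -0.27 after PB and -0.05 after LEV. The vesicle phosphoproteins Syn1 and Syn2 gave -0.16 (SE 0.06) and -0.14 (SE 0.05), in both cases further from 0 after PB. Of 38 glutamate receptor transcripts, 4 were lower and 1 higher at this level, and Grin2b, an NMDA receptor subunit of young synapses, gave -0.28 (SE 0.09, edgeR adjusted p = 0.181), with -0.17 after PB and -0.41 after LEV. Grin2b gave -0.50 (SE 0.11) in the 2-letter and -0.08 (SE 0.11) in the 1-letter series. In the 1-letter series it was 0.08 (SE 0.12) after PB and -0.27 (SE 0.12) after LEV. Of the 88 tested transcripts on the study's GABA neuron list, 14 were lower (15.9%) and 2 higher (2.27%), with a median of -0.12 after PB and 0.01 after LEV. The study's cell type lists are those it applied to these libraries, so their directions are no independent evidence.

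Immediate early genes are those that neurons switch on within minutes of activity. Of 34 transcripts, 6 were higher (17.6%, beside 5.57% of all tested) and 0 lower at an unadjusted p under 0.05, and none passed after adjustment. By sign alone 20 were higher and 14 lower, and 21 had the same sign after both drugs. The median was 0.02, with -0.01 after PB and 0.05 after LEV, and the log2 changes ran from -0.64 to 0.46. Fos gave 0.36 (SE 0.11, edgeR adjusted p = 0.195) and Npas4 0.46 (SE 0.15, edgeR adjusted p = 0.214). Both had larger values after LEV than after PB, 0.46 and 0.26 for Fos and 0.62 and 0.28 for Npas4. They also had larger values in the 1-letter than in the 2-letter series, 0.55 and 0.16 for Fos and 0.89 and 0.03 for Npas4. The receptors Nr4a1 and Nr4a2, nuclear receptors of the same class, gave 0.15 (SE 0.06) and 0.32 (SE 0.11). The count of 6 was the same without VEH animal 1. Tissue was collected over the working day and the time for each animal is not given, and its part in these values was not tested.

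The astrocyte list had 32 tested transcripts of 22 genes, of which 9 were lower (28.1%) and 4 higher (12.5%) at an unadjusted p under 0.05. Of all tested transcripts 5.10% were lower and 5.57% higher, and none of the list passed. Among the 9, Slc1a2 and Aqp4 are each counted through more than 1 transcript. The Aqp4 transcripts NM_001317749 and NM_012825 have identical values, so the 9 are not separate measurements. The lower ones were transcripts of Slc1a3, Slc1a2, Slc4a4, Aqp4, Aldoc and Fgfr3, which encode transporters, a water channel, a glycolytic enzyme and a growth factor receptor. The Slc1a2 transcript NM_001302089 gave -0.33 (SE 0.11) and Slc4a4 -0.30 (SE 0.09), in both cases from the 2-letter series (-0.79 and -0.69, against 0.08 and 0.04). Another Slc1a2 transcript, NM_017215, gave 0.28 after PB and -0.65 after LEV, with -1.62 (SE 0.32) in the 2-letter and 1.03 (SE 0.49) in the 1-letter series. The higher ones were Vim, Cd44, C3 and Gfap, which rise in reactive astrocytes, and the list's other reactive genes were not among them. By sign alone 12 transcripts of the list were higher and 20 lower. C3 gave 0.01 in the 2-letter and 0.54 in the 1-letter series, and Gfap 0.03 and 0.25. After PB C3 gave 0.46, and after LEV 0.13. Gfap gave 0.15 (SE 0.07, edgeR adjusted p = 0.461), with 0.32 after PB and -0.04 after LEV, and Vim, an intermediate filament, 0.22 (SE 0.06, edgeR adjusted p = 0.136), with 0.30 and 0.13. The counts were 6 lower and 4 higher when VEH animal 1 was left out. The study's longer astrocyte list had 66 of 423 transcripts lower (15.6%) and 25 higher (5.91%), and Mmd2 alone passed. In whole tissue, fewer cells of a type and less RNA per cell cannot be told apart.

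In microglia, Cd68, a lysosomal glycoprotein of phagocytic cells, gave 0.74 (SE 0.17, edgeR adjusted p = 0.0647), with 0.97 after PB and 0.47 after LEV, so that the smaller value was just under 50% of the larger. It was higher than the VEH mean of the series in 14 of 14 PB and 13 of 14 LEV animals. Few other microglial genes had low p-values. Of the 32 tested transcripts of the list, 2 were higher (6.25%, beside 5.57% of all tested) and 1 lower at an unadjusted p under 0.05, with a median of -0.03.

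Of 24 myelin transcripts of oligodendrocytes, 6 were higher (25%, beside 5.57% of all tested) and 0 lower at an unadjusted p under 0.05. None passed, and the median was 0.16, with 0.09 after PB and 0.32 after LEV. All 24 were above 0 after LEV, and 14 had the same sign after both drugs. Opalin, a myelin membrane glycoprotein, gave -0.21 with both drugs together, fell by 1.39 in the comparison of PB with VEH alone (edgeR adjusted p = 0.0339), and gave 0.46 after LEV. Myrf, the transcription factor of myelination, gave 0.22 (SE 0.06, edgeR adjusted p = 0.174), with 0.28 after PB (edgeR adjusted p = 0.0138 for PB against VEH alone) and 0.15 after LEV, and with 0.10 in the 2-letter and 0.32 in the 1-letter series. The precursor list had 2 higher and 2 lower of 19. Its higher members Bcas1 (0.26, SE 0.08) and Enpp6 (0.45, SE 0.16) mark newly formed oligodendrocytes, and its lower ones were Ptprz1 (-0.14, SE 0.05) and Cspg4 (-0.09, SE 0.04). The myelin count was 5 of 24 when VEH animal 1 was left out.

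Ependymal genes, which build the motile cilia of the ventricle lining, were the list with the largest share of low p-values. All 16 tested transcripts of 18 in the table were higher in drug animals, 8 of them at an unadjusted p under 0.05 (50%, beside 5.57% of all tested), and none passed after adjustment. The median was 0.43, with 0.40 after PB and 0.45 after LEV. Rsph1, a radial spoke protein, gave 0.53 (SE 0.18, edgeR adjusted p = 0.225), and Foxj1, the transcription factor of motile cilia, 0.43 (SE 0.21). The members share one cell type and are not independent of each other. The summed level of the list was 66.4 to 159 CPM, counts scaled to one library total, in VEH animals (median 95.7) and 87.3 to 258 in drug animals (median 119), so the groups overlapped. Choroid plexus, which lies beside the hippocampus in the ventricle, lay to the same side, and all 18 of its tested transcripts, of 20 in the table, were higher in drug animals, none at an unadjusted p under 0.05, with a median of 0.65. Its summed level ranged from 38.0 to 5100 CPM in VEH (median 275) and from 34.8 to 7795 in drug animals (median 954). The part of the dissection in these values was not tested. Without VEH animal 1, which had the highest choroid plexus level of the VEH animals, the cilia count was again 8 and the choroid plexus median 0.94. With the choroid plexus level as a covariate 4 transcripts passed, Gxylt1, Phldb1 and Mmd2 among them.

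Cytosolic ribosomal proteins had 20 of 105 transcripts higher (19.0%, beside 5.57% of all tested) and 0 lower at an unadjusted p under 0.05. The 105 are transcripts of 83 genes and include some with identical values, as for Rps9 and Rps9l1, so they are not separate measurements. None passed, and the median of 0.08 was 0.13 after PB and 0.01 after LEV. Rpl24 gave 0.14 (SE 0.04, edgeR adjusted p = 0.214). Chromatin writers and DNA methylation genes had 9 of 39 higher (23.1%) and 0 lower. Their median of 0.04 was 0.07 after PB and 0.01 after LEV, and 21 of the 39 had the same sign after both drugs. Arid1a, a subunit of a chromatin remodelling complex, gave 0.07 (SE 0.02, edgeR adjusted p = 0.155), with 0.08 after PB and 0.07 after LEV. The Dnmt3a transcript NM_001003957 had the largest value, 0.76 (SE 0.27, edgeR adjusted p = 0.267), but 1.83 in the 2-letter and 0.26 in the 1-letter series, and reads of its 2 listed transcripts can be split between them.

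The remaining lists gave no member past the threshold. Over all tested transcripts, 5.57% were higher and 5.10% lower at an unadjusted p under 0.05. At that level apoptosis regulators had 0 of 27 in either direction, proteasome subunits 0 of 38, and brain endothelium 0 of 23. p53 targets and glucocorticoid-induced genes shared the leading member Cdkn1a, a cell-cycle inhibitor, at 0.32 (SE 0.10, edgeR adjusted p = 0.191). Heat shock proteins had 1 of 28 higher, the stress and unfolded protein response list 1 higher and 2 lower of 27, and cholesterol synthesis 1 lower of 23. Drug-metabolizing enzymes had 1 higher and 2 lower of 21, among them Abcb1b, a drug efflux pump, at -0.23 (SE 0.08, edgeR adjusted p = 0.284), with -0.21 after PB and -0.25 after LEV. Oxidative phosphorylation subunits had 4 of 84 lower and 1 higher, mitochondrial ribosomal proteins 4 of 76 higher and 3 lower, and clock genes 1 of 18 each way. Axon guidance had 4 higher and 2 lower of 52, S phase and mitosis 1 higher of 34, immature neurons 2 each way of 19, and hippocampal subfield genes 1 higher and 4 lower of 25. The vessel wall and meninges list had 2 higher and 1 lower of 25, skeletal muscle 1 higher and 2 lower of 11, and red blood cells none of 9. On the study's other lists, 9 of 251 microglial transcripts were higher (3.59%) and 6 lower (2.39%), and 10 of 105 oligodendrocyte transcripts were higher (9.52%) and 3 lower (2.86%).

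**Figure D5:**
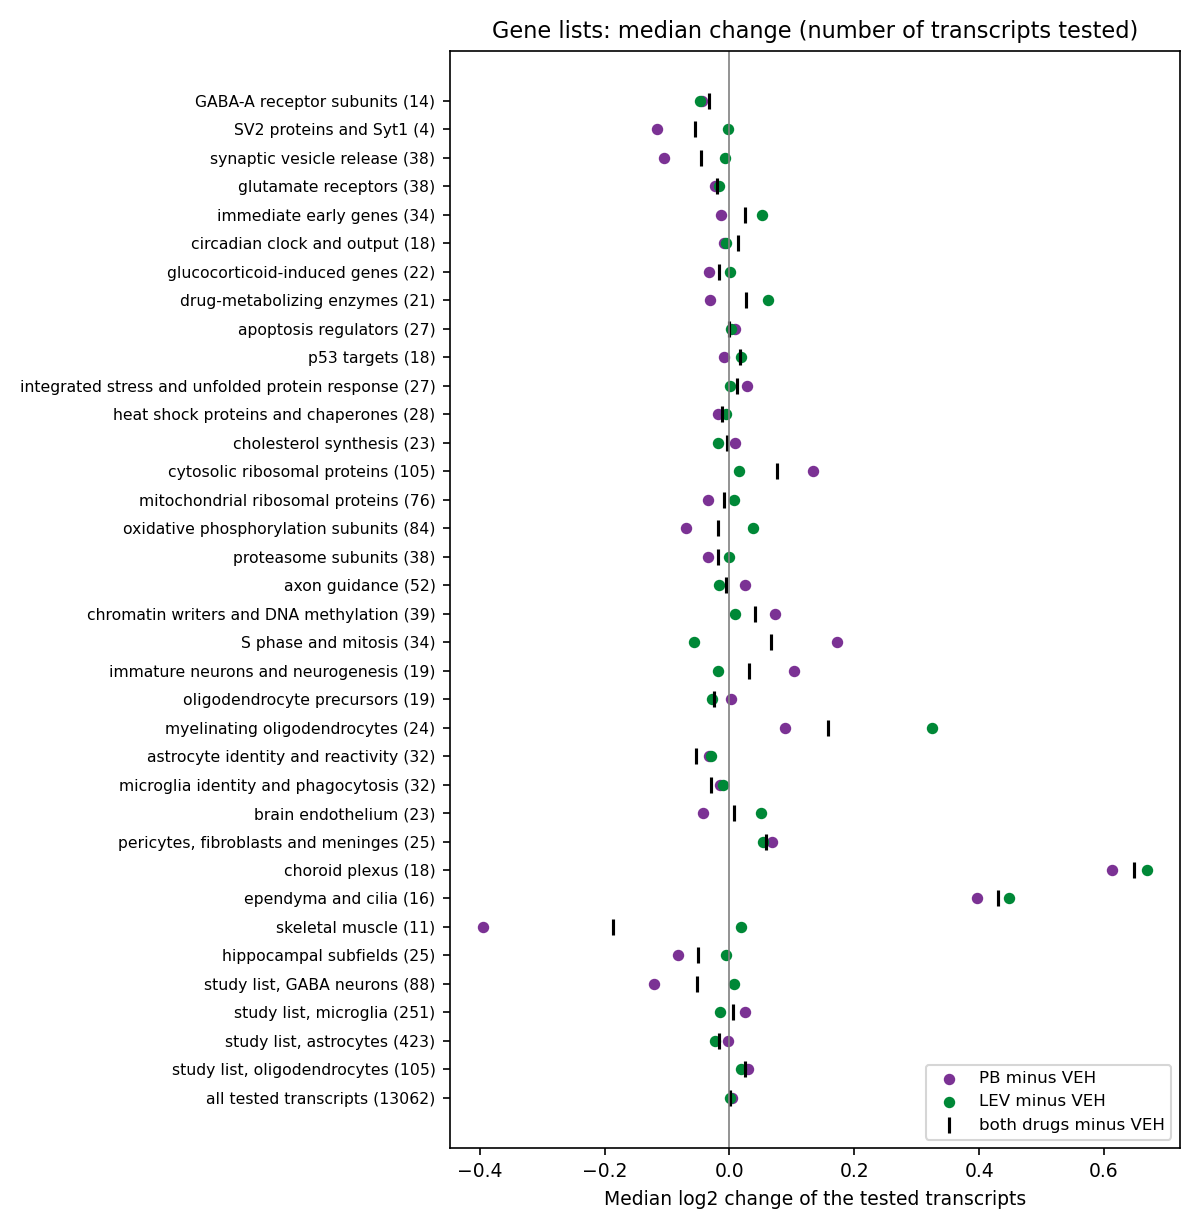
Median log2 change from VEH (horizontal axis) of the tested transcripts of each gene list, with the number tested in brackets, for PB, LEV and both drugs together. The choroid plexus and ependyma lists lie to the right for both drugs (0.61 and 0.67, 0.40 and 0.45), while the PB and LEV medians are 0.13 and 0.01 for cytosolic ribosomal proteins, -0.12 and 0.01 for the GABA neuron list and -0.11 and -0.01 for vesicle release.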

How the data were processed

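Total RNA of 42 hippocampi was sequenced by the study as paired-end libraries, 1 per animal, of which 41 were analysed. How messenger RNA was enriched is not given in the sources used here. Per the submitters' processing notes, reads were aligned to rn6 with STAR 2.7.3a, and the authors deposited estimated counts per RefSeq transcript from the Partek E/M algorithm, before normalization. Of the deposited values 13.7% were not whole. Another deposited table, the authors' own DESeq2 comparisons, was not used.

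Rounded counts entered edgeR 4.0.16 under R 4.3.3 (TMM, filterByExpr on drug or VEH, glmQLFit and glmQLFTest), with the code form as an additive term where the study subtracted batch effects. The filter kept 13062 of 15516 transcripts, and p-values were adjusted over these by Benjamini-Hochberg. Of the 15516, 416 had the same values as another transcript and were not merged. Changes after PB and after LEV come from a fit with 3 groups. Normalized counts are rounded counts scaled by effective library sizes. Fits were tested on simulated counts. Transcripts with few counts have wide standard errors, which set the precision. Animals were not paired by replicate number in the main fit. Of 40 same-numbered pairs, 10 had deviations correlated above 0.1. This count was not set beside pairs of unlike number, so it cannot decide whether the numbers mark littermates.

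The comparison, its 34 lists, the study's 4 lists and the alternatives were chosen with earlier results of these data known. Named were the common transcripts and the next in order of p, up to 6 a direction, the leading member of each list and 15 set genes. Any other gene was picked with its values in view. Some transcripts are not reported here. Alternatives were DESeq2 1.42.0 and others given in the closing section. Promoter windows are from RefSeq (GRCr8).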

Additional observations from a re-analysis of the deposited data

Results flagged for a closer look

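The drug minus VEH change differed between the series for 2 of the transcripts named, by the series-by-drug term of edgeR's quasi-likelihood fit. Dnmt3a NM_001003958, a transcript of a DNA methyltransferase, had a log2 change 0.52 higher in the 1-letter than in the 2-letter series (SE 0.12, adjusted p = 0.0215), with -0.27 in the 2-letter and 0.25 in the 1-letter animals, and lay near 0 in both together (0.0061, SE 0.07). Slc7a11, the cystine and glutamate exchanger, had a log2 change 0.47 higher (SE 0.11, adjusted p = 0.0345), with -0.41 and 0.06.

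Among data outside the comparison, the excluded VEH animal had 2.42% of its counts from 18S ribosomal RNA, above the 0.853% to 1.23% of the 13 VEH animals analysed.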

How the results depend on the processing

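Leaving out 1 animal at a time gave 2 to 22 transcripts in the common comparison, 0 to 3 with a fold of at least 1.25 and 2 to 19 in the common response, and 73 to 230 in the 2-letter and 2 to 7 in the 1-letter series alone. The count of 3 was 22 without LEV animal 8, 17 without LEV animal 12, 15 without VEH animal 9 and 11 without LEV animal 14, and 2 without VEH animal 1, 8 or 13. In place of 3 called, 0 past the fold and 3 in the common response, DESeq2 gave 60, 4 and 46, a mean of at least 50 counts 5, 1 and 5, no batch term 1, 0 and 1, a series-by-drug term 16, 3 and 13, the mean of the PB and LEV changes in the 3-group fit 26, 4 and 15, all 14 VEH animals 7, 2 and 7, counts summed per symbol 5, 0 and 5, an adjusted p under 0.10 30, 3 and 24, and the 18S covariate, chosen after seeing the data, 67, 10 and 55. No filter and the skeletal muscle covariate gave 4 called and 1 past the fold. With the filter repeated, the 2-letter series alone gave 141 and 52 past the fold, and the 1-letter series alone 2 and 2. Within the 2-letter series, 146 became 339 with DESeq2, 76 without VEH animal 1 when the filter on low counts was repeated (74 over the same transcripts), 374 with the skeletal muscle covariate and 278 at an adjusted p under 0.10. Within the 1-letter series, 2 became 24 with DESeq2, 7 with all VEH animals, 7 per symbol, 5 with the muscle covariate, 15 at 0.10 and 30 with the 18S covariate. With the replicate number as a block, which the labels do not tie to litters, the counts were 2 in the common comparison (Gxylt1 and Mmd2), 75 in the 2-letter and 4 in the 1-letter series. Of 41 animals, 7 correlated best with their own number. That number was not set beside the one expected for unpaired animals, so it cannot decide whether the numbers mark littermates. Gxylt1 passed in every setting except the 1-letter series alone, and Phldb1 did not pass there, in the 2-letter series alone, without a batch term, without VEH animal 1, with the block, with all 14 VEH animals or with the muscle covariate. Mmd2 did not pass without a batch term or in the 1-letter series alone. Dnmt3a NM_001003958 turned from 0.0061 to -0.27 in the 2-letter series alone (edgeR adjusted p = 0.0186). The causes were not tested. Of 987 other values for the 55 transcripts named (each animal left out not counted), 872 kept their direction and their side of the threshold, 71 passed where the value reported did not, 10 did not pass where it did, 21 had the other sign with neither value past the threshold, and 12 had no adjusted p in DESeq2.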

Other observations

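A list of 137 transcripts of SR proteins and other splicing factors, written after their values were seen and therefore a description, had 135 tested. Of these, 104 were higher and 31 lower in drug animals. At an unadjusted p under 0.05, 29 were higher (21.5%, beside 5.57% of all tested) and 0 lower, and none passed. The median log2 change was 0.04, with 0.06 after PB and 0.03 after LEV, and 0.06 in the 2-letter and 0.02 in the 1-letter series. Pnn, a nuclear speckle protein, gave 0.15 (SE 0.03, edgeR adjusted p = 0.0859), with 0.17 after PB and 0.13 after LEV and with 0.18 and 0.12 in the series. Srrm2, a large scaffold of nuclear speckles, gave 0.14 (SE 0.03, edgeR adjusted p = 0.0859), with 0.11 and 0.16 in the series, and Srsf7 0.17 (SE 0.05, edgeR adjusted p = 0.155), with 0.09 and 0.24. Without VEH animal 1, 27 were higher and 0 lower.

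Of 219 transcripts with an unadjusted p under 0.05 in both series, 91 had the same sign in both (41.6%). Over all tested transcripts the series had the same sign for 48.4%. The group of 91 was no more than this share, with 57 higher and 34 lower. Beside those named in the report it held Pygm, the muscle form of glycogen phosphorylase (-0.28, SE 0.07, edgeR adjusted p = 0.0859, with -0.27 and -0.29), Col27a1, a fibrillar collagen (0.39, SE 0.10, edgeR adjusted p = 0.115, with 0.41 and 0.37), and Gpr83, a receptor of neurons (-0.28, SE 0.07, edgeR adjusted p = 0.105, with -0.31 and -0.25). These 3 genes were picked with their values in view.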
